A study of Phaseolus vulgaris with 24 samples.

Results

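The genes described here are the 100 common bean genes, of 27213 in the count tables, that fell most with salt in the roots of both genotypes. On the log2(CPM + 1) scale they stayed nearly level in both leaves. They were chosen on these libraries. Counts were scaled to a common library total of 1000000 (CPM), and the mean of log2(CPM + 1) in control libraries was subtracted from that in salt libraries for each genotype and tissue. The 13206 genes with a difference under 0.5 in either direction in both leaves were kept, and the 100 with the lowest value of the larger of their root differences were taken. The fall in roots and the level course in leaves are therefore the rule itself, and they are given as a description with no test.

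The samples were leaf and root of Phaseolus vulgaris genotypes Ispir, which the study calls salt-tolerant, and TR43477, which it calls salt-susceptible. Plants of every group grew in hydroponics, and by the methods of the study Ispir seedlings were older in days after sowing at transfer than those of TR43477. Control groups are those labelled as such. In the treated groups, from 5 days after transfer, NaCl was raised in daily steps from 50 mM through 100 mM to 125 mM and then held for 3 days. The 24 libraries form 8 groups of 3 biological replicates, written below as IR and TR for the roots and IL and TL for the leaves of Ispir and TR43477. Library totals were 12163655 to 26416766 counts, so that 3 counts, taken as the detection limit per library, were worth 0.114 to 0.247 CPM. This limit covers counting error only.

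Roots take up water and ions and are the organ in direct contact with the saline solution, whereas leaves meet the salt that the shoot receives. Many plant genes are used in roots and hardly at all in leaves, and such a gene has no room to fall in leaves. Roots live on sucrose imported from the leaves, and the enzyme that splits sucrose into glucose and fructose is invertase. The tables hold gene identifiers without names, and only 1 of the 100 genes, Phvul.002G061200, carries an annotation in the lists of the study, as a gene that turns sucrose into fructose and glucose. The other 99 are described by their levels alone.

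The fall in roots is set by the rule, and in leaves most of the genes had almost no signal. A total of 83 members had a mean under 1 CPM over the 12 leaf libraries (leaf-low below), 67 had no more than 3 counts in any leaf library and 50 had no leaf count at all. Among the genes that passed the leaf limit, 60.5% were leaf-low, against 34.7% of all genes. Only 17 members had a mean at or above 1 CPM in leaves (leaf-expressed), and only among these can a level course in leaves be measured. The mean pools both genotypes, and some of the 17 were near the detection limit in TL. Phvul.L003544 had 1, 1 and 0 counts in TL control and 4, 1 and 8 in TL salt, an edgeR log2 fold change of 2.18 ± 1.21 (SE). Phvul.002G153500 had 0, 6 and 10 against 3, 1 and 2 counts, at -1.64 ± 1.25. Both genes were picked out after their values were seen. In roots all 100 were above 1 CPM under control conditions, with a median of 23.4 CPM and a range of 1.60 to 560.1 CPM.

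**Figure D1:**
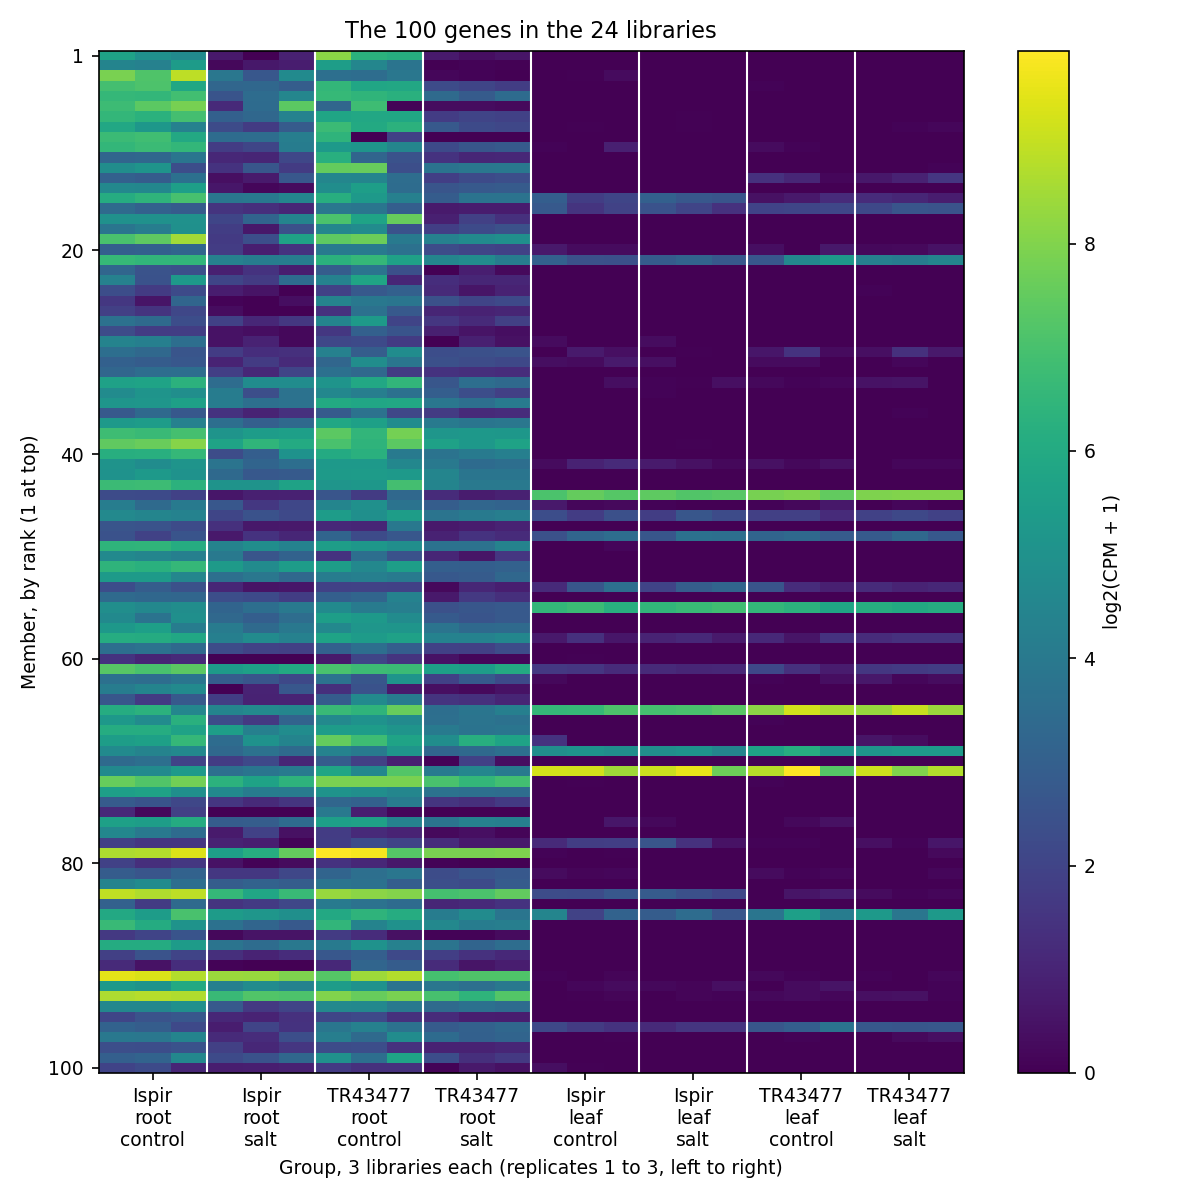
Each line is 1 of the 100 genes, ordered by rank from the top, and each column 1 of the 24 libraries. Colour gives log2(CPM + 1). Control root columns are brighter than salt root columns, and the leaf columns are dark except for a few lines, the leaf-expressed members.

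Summed over the 100 genes, the members took 5784, 5537 and 6448 CPM in the IR control libraries and 1430, 1439 and 1916 CPM under salt. In TR the control libraries stood at 5655, 5006 and 4201 CPM and the salt libraries at 1431, 1418 and 1594 CPM. Control and salt did not overlap in either root. The 83 leaf-low members made up most of the sum, at 4807 ± 396 CPM in IR control (SD, n = 3) and 1303 ± 252 CPM under salt. The leaf-expressed members summed to 1116 ± 83.5 CPM in IR control and 292 ± 27.7 CPM under salt, and to 964 ± 91.1 and 341 ± 45.5 CPM in TR. In leaves these 17 genes summed to 949 ± 135 CPM in IL control and 967 ± 249 CPM under salt, and to 1350 ± 586 and 1232 ± 62.4 CPM in TL. The leaf and root sums were carried largely by different genes, so that they do not follow the same genes in both tissues. In Ispir control Phvul.003G226900 had 511.0 CPM in leaf and 29.8 CPM in root, and Phvul.002G153500 had 4.36 CPM in leaf and 453.5 CPM in root.

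**Figure D2:**
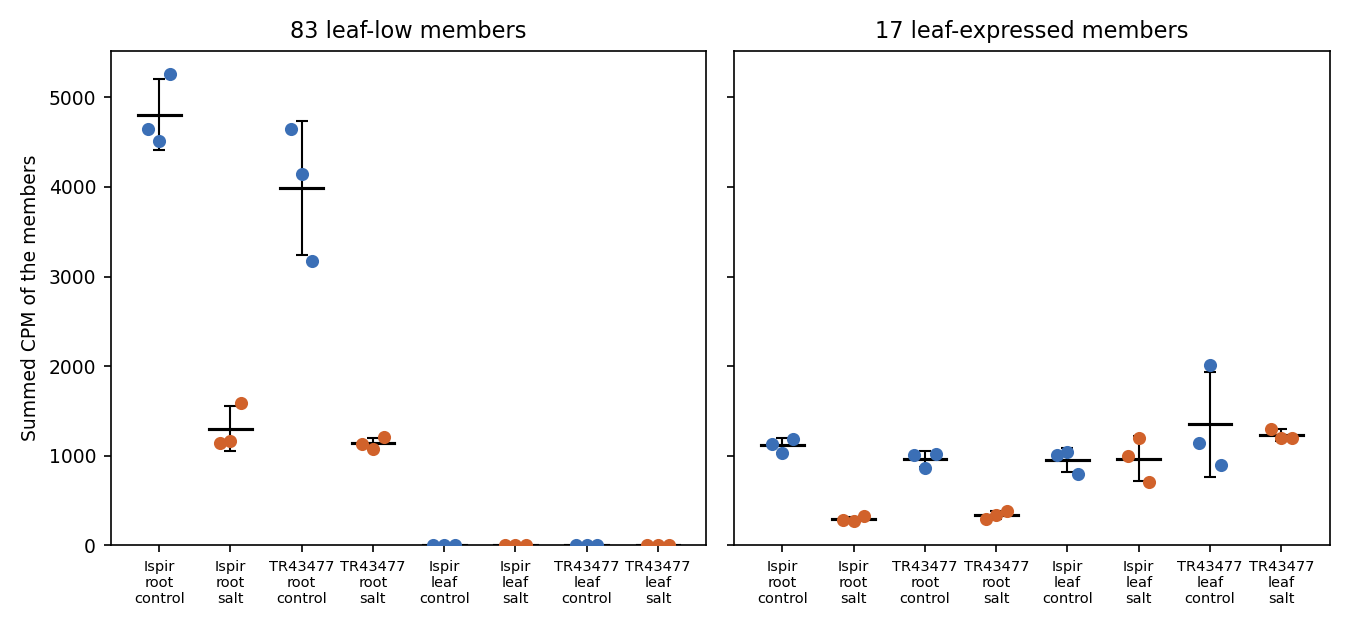
Points give the CPM summed over the leaf-low (left) and the leaf-expressed members (right) in each library, with control in blue and salt in orange, and bars give the mean and SD of 3 libraries. The leaf-low sum is between 3178 and 5258 CPM in control roots and near 0 in every leaf library, while the leaf-expressed sum falls in roots and overlaps between control and salt in leaves. Largely different genes carry the leaf-expressed sum in root and in leaf.

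The median difference on the log2(CPM + 1) scale was -1.61 in IR and -1.56 in TR, with ranges of -4.61 to -0.90 and -6.31 to -0.91. In CPM the median member kept 24.1% of its control level in IR and 22.8% in TR. Salt left under 10% of the control level for 15 members in IR and 20 in TR. All salt libraries were below all control libraries for 92 members in IR (16.1% of the genes tested there), for 85 in TR (7.44%) and for 81 in both (3.09%). By edgeR's quasi-likelihood test (absolute log2 fold change over 1, adjusted p below 0.01), 49 members were called lower in IR, against 1.48% of all genes, and 20 in TR, against 0.266%, with 12 called in both and 43 in neither. Leaving out IR control replicates 1, 2 or 3 gave 8, 11 and 29 in IR, and leaving out IR salt replicates 1 or 3 gave 29 and 28. In TR 5 were left without control replicate 1, 45 were called without control replicate 3, and 2, 2 and 1 were left without salt replicates 1, 2 and 3. In leaves 0 of the 44 members tested in IL and 0 of the 41 in TL were called in either direction by edgeR or DESeq2, against 4.81% and 5.09% of all genes by edgeR, and 3 and 0 members had an unadjusted edgeR p under 0.05. The 3 in IL were lower with salt, at low counts that the log2(CPM + 1) scale keeps within the leaf limit. Their log2 fold changes were -5.50 ± 1.42 (SE) for Phvul.004G115800, -3.19 ± 1.29 for Phvul.005G077600 and -4.33 ± 1.52 for Phvul.006G014000. Since the rule used these contrasts, nothing is read from these numbers. The rule treats the genotypes alike, and 50 members fell further in IR and 50 further in TR. The fall differed by under 0.5 for 49 of them, which is likewise a description only.

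**Figure D3:**
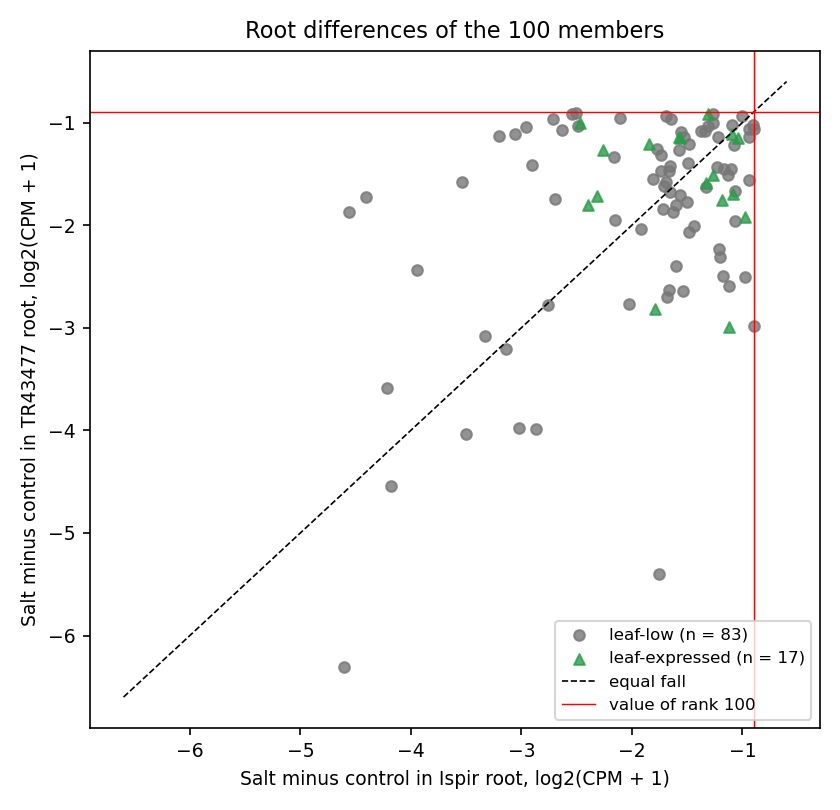
Each point is a member, placed by its salt minus control difference in log2(CPM + 1) in Ispir root (x) and TR43477 root (y). Grey circles are leaf-low and green triangles leaf-expressed members. The red lines mark the value of rank 100, -0.90, and the points lie on both sides of the dashed line of equal fall.

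The largest fall shared by both roots was that of Phvul.008G103600 (chromosome 8, 10639963 to 10642357, minus strand, genome version 2.1). Its IR control libraries had 50.2, 31.2 and 25.1 CPM and its IR salt libraries 0.575, 0 and 0.887 CPM. In TR it went from 279.8, 78.7 and 69.8 CPM to 0.650, 0.303 and 0.480 CPM. The groups were far apart in both roots, and no leaf library held a count of the gene. Phvul.008G164100 (chromosome 8, 44659495 to 44663795, minus strand) was next, with 20.9, 19.1 and 41.6 CPM in IR control and 0.164, 0.562 and 0.739 CPM in IR salt. In TR it had 43.5, 22.2 and 12.7 CPM under control conditions, and its salt libraries were all at or under 3 counts, which puts its mean at least 179-fold lower there. It too had no leaf count.

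Phvul.002G061200, listed where sucrose is split into its hexoses, ranked 8 (chromosome 2, 7107566 to 7110641, minus strand). IR control libraries had 59.1, 35.8 and 18.9 CPM and IR salt libraries 3.78, 2.32 and 6.21 CPM. TR control libraries had 103.3, 62.9 and 80.4 CPM, and TR salt libraries had 5.72, 3.67 and 3.32 CPM. The lowest control library was above the highest salt library in each root, and salt left 10.8% of the control mean in IR and 5.15% in TR. The gene was at or under 3 counts in every leaf library. The study's metabolism list holds 5 genes of the sucrose steps, a list it chose on these samples. The other gene listed for the same step, Phvul.001G191600, moved the opposite way in roots, with a log2 fold change of 6.12 in IR (edgeR adjusted p = 0.0021) and 8.33 in TR (edgeR adjusted p = 7.9e-05). Of all 5, edgeR called 2 higher and 1 lower in IR, and 1 higher and 1 lower in TR. None of the 56 photosynthesis genes or 46 transporter genes that the study lists was a member, but only 0 and 7 of them were within the leaf limit, so that the rule kept nearly all of them out. Of 117 root genes that passed a further filter of the study, also chosen on these samples, 34 were within the leaf limit and 0 were members. The median difference of the 117 was 2.06 in IR and 0.21 in TR.

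The most abundant members under control conditions were Phvul.005G052500 and Phvul.010G135500. Phvul.005G052500 (chromosome 5, 6814471 to 6815325, minus strand) had 403.9, 419.0 and 639.2 CPM in IR control and 46.3, 69.0 and 185.5 CPM in IR salt, which left 20.6% of the mean. In TR it had 908.4, 839.4 and 150.7 CPM in control and 232.4, 232.8 and 246.7 CPM in salt. The TR groups thus overlapped, because control replicate 3 was below every salt library. Phvul.010G135500 (chromosome 10, 41816169 to 41820712, plus strand) kept 51.4% of its control mean in IR, the largest share of any member there, and 43.6% in TR. Its IR libraries went from 699.2, 633.0 and 420.9 CPM to 331.5, 323.6 and 245.2 CPM, and its TR libraries from 150.7, 341.4 and 425.9 CPM to 121.8, 139.6 and 139.1 CPM.

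**Figure D4:**
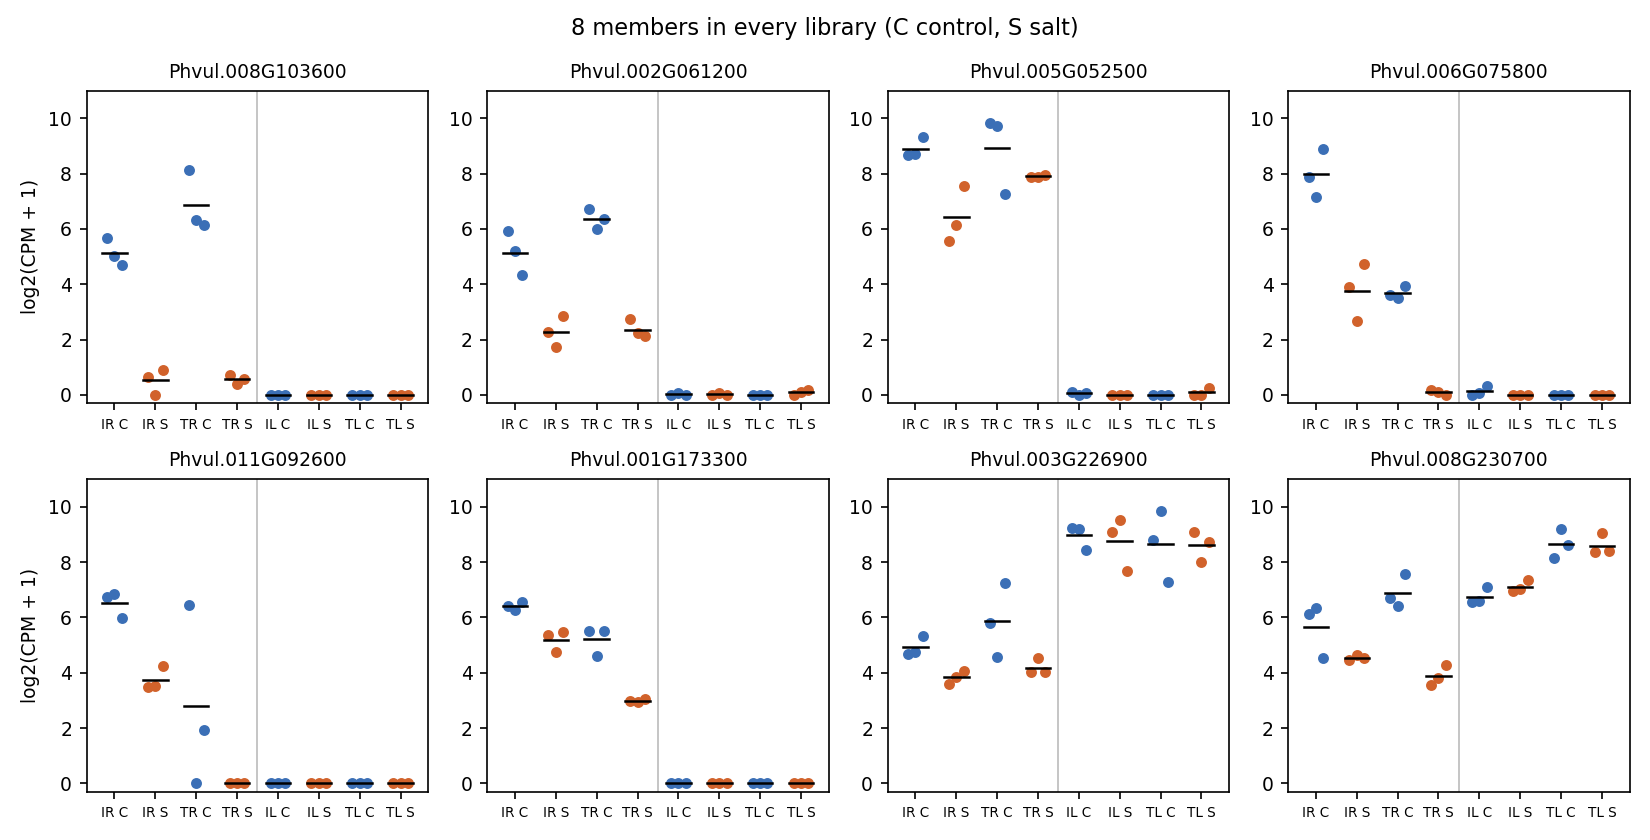
Each panel shows log2(CPM + 1) of a member in all 24 libraries, in blue for control (C) and orange for salt (S), with a line at each group mean. IR and TR are the roots and IL and TL the leaves of Ispir and TR43477. The first 6 panels are at or near 0 in leaves, and the last 2 are higher in leaves than in most root libraries.

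Root control replicate 3 of TR43477 stood apart for several members. It was the lowest of its group for 54 of the 100, against 38.9% of all genes, and its summed level of the photosynthesis list was 800.2 CPM, where the other root libraries had 152 to 390 CPM and the leaf libraries 11749 to 105649 CPM. Within TR the photosynthesis sum was 278, 268 and 800.2 CPM in control and 152, 210 and 166 CPM under salt, without overlap, so that it was lower together with the leaf-expressed members. In IR it was 349 to 390 CPM in control and 353 to 372 CPM under salt. Without TR43477 root control replicate 3, 75 of the 100 members stayed in the set, the lowest number for any library left out. The part of this library and of the photosynthesis signal in the falls was not tested. Control and salt overlapped in both roots for 4 members, of which Phvul.011G211800, ranked 6, was picked out after its values were seen. It had 107.9, 164.6 and 225.3 CPM in IR control against 1.23, 9.90 and 164.8 CPM in IR salt. In TR control it had 8.56, 110.0 and 0.0693 CPM, and in TR salt 0.260, 0.265 and 0.175 CPM. A single salt library in IR and a single control library in TR were thus out of order.

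Of the 17 leaf-expressed members, the most abundant in leaves were Phvul.003G226900 (chromosome 3, 45785547 to 45788554, minus strand) and Phvul.008G230700 (chromosome 8, 58191196 to 58196629, minus strand). Phvul.003G226900 had 203.5 to 733.5 CPM in IL and 152.4 to 929.3 CPM in TL, with control and salt overlapping in both. In IR it fell from 24.7, 25.7 and 39.2 CPM to 11.2, 13.2 and 15.8 CPM, and in TR from 54.7, 22.9 and 150.3 CPM to 15.1, 21.9 and 15.1 CPM. The highest TR control value was that of replicate 3, the library with the raised photosynthesis sum, and without that library the gene left the set. It also left the set without Ispir leaf salt replicate 2, Ispir root control replicate 3, or TR43477 leaf control replicate 2 or 3. Phvul.008G230700 had 67.9, 80.3 and 22.3 CPM in IR control and 21.1, 24.2 and 21.9 CPM in salt, and it went from 101.9, 83.3 and 187.5 CPM to 10.9, 13.1 and 18.3 CPM in TR. In IR its control replicate 3 lay within the range of the salt libraries. Its highest TR value was again in control replicate 3, and it stayed in the set without that library. It left the set without Ispir leaf control replicate 3 or Ispir root control replicate 2.

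Control roots were also set against control leaves. The direction is largely built into the rule, since a gene needs some level in control roots to fall there and the leaf limit favours genes with little leaf signal, so that the excess in root is a description. With the same test and thresholds, 87 of the 100 members were higher in root in Ispir, against 23.2% of all genes tested, and 3 were lower, against 16.7%. In TR43477 70 were higher, against 10.9%, and 3 were lower, against 11.7%, and 68 were higher in both genotypes. Among genes within the leaf limit alone, 28.6% were higher and 7.40% lower in root in Ispir, and 14.7% and 5.36% in TR43477. The TR43477 number fell to 47 without root control replicate 2. On simulated counts the TR43477 fit recovered 4% of log2 changes of 2, against 65% in Ispir. Few genes differed in that simulation, and most members differed by far more than 2, so that these shares do not describe the members. The fits differed in sensitivity there, and the numbers of the genotypes are not compared. Phvul.009G020600 ranked first among members by adjusted p in both genotypes, and Phvul.008G046400 was next in TR43477 and tied with Phvul.009G199400 in Ispir. Phvul.009G020600 had 411.6 ± 15.3 CPM in Ispir control roots (SD, n = 3) and at most 3 counts in each control leaf library, so that its root level was at least 2454-fold higher. In TR43477 it had 225.2 ± 35.0 CPM in roots, at least 1020.2-fold above the detection limit in leaves. For Phvul.008G046400 the root level was at least 1096-fold higher in Ispir and at least 1061-fold higher in TR43477.

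The members lower in root than in leaf were few. In both genotypes they included Phvul.001G173900, with a log2 difference of -5.86 in Ispir (edgeR adjusted p = 1.3e-05) and -5.85 in TR43477 (edgeR adjusted p = 0.00063), and Phvul.009G199300, at -2.10 (edgeR adjusted p = 0.00010) and -2.46 (edgeR adjusted p = 0.0012). These genes were picked out after their values were seen. Phvul.003G226900 was lower in root in Ispir, at -4.40 ± 0.33 (SE, edgeR adjusted p = 6.7e-05), and in TR43477 its value of -3.31 ± 0.94 did not pass (edgeR adjusted p = 0.032). Phvul.008G230700 passed in TR43477 only, at -2.30 ± 0.46 (edgeR adjusted p = 0.0086), and it missed the threshold whichever of the 6 libraries was left out, with adjusted p of 0.010 to 0.042. The difference between the genotypes was not tested. Phvul.009G199300 and its neighbour Phvul.009G199400, both members, differed in their leaf levels, with means of 83.5 and 1.78 CPM over the leaf libraries.

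The genotypes were also compared within control roots and within salt-treated roots. The rule used the values of these libraries, though not these contrasts. A member needs some level in the control roots of both genotypes to fall there, which limits how far the genotypes can differ. The counts are therefore a description, and the shares of all genes beside them include genes without such a level. In control roots 4 of the 100 members were higher in Ispir, against 0.990% of all genes, and 0 were lower, against 1.08% by edgeR. At an unadjusted p under 0.05 there were 34 members in either direction, against 25.7% of all genes, and DESeq2 called 8 higher and 5 lower, against 2.96% and 3.61%. The count of 4 dropped to 0 without replicate 1 of either genotype, to 1 without replicate 2 of either and to 2 without Ispir replicate 3. Without TR43477 replicate 2 all 4 lost their call, and the 1 counted there was another member. Phvul.006G075800 (chromosome 6, 18801706 to 18803416, minus strand) differed most, with 235.7, 141.3 and 473.8 CPM in Ispir against 11.2, 10.4 and 14.2 CPM in TR43477, a log2 fold change of 4.53 ± 0.49 (SE, edgeR adjusted p = 0.0036). The groups were far apart, but the call was lost without Ispir control replicate 1, TR43477 control replicate 1 or TR43477 control replicate 2, at adjusted p of up to 0.019. Phvul.002G123500 had 20.2, 18.2 and 10.8 CPM in Ispir and 3.30, 3.70 and 2.29 CPM in TR43477, a log2 fold change of 2.34 ± 0.29 (edgeR adjusted p = 0.0062). That call was lost without replicate 1 or 2 of either genotype, with adjusted p of up to 0.040.

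In salt-treated roots 6 of the 99 members tested were higher in Ispir, against 3.43% of all genes, and 4 were lower, against 2.56%. Without TR43477 salt replicates 1, 2 or 3 the 6 became 3, and without Ispir salt replicate 2 it became 10, while the 4 became 2 without TR43477 salt replicate 1 or 3. Phvul.011G092600 (chromosome 11, 9266022 to 9270278, minus strand) had the smallest adjusted p, with 10.2, 10.5 and 17.8 CPM in Ispir and no count in any TR43477 salt library. Its level was at least 87.7-fold higher in Ispir (edgeR adjusted p = 0.00030). Its TR43477 control libraries had 85.1, 0 and 2.77 CPM, so that the fall of this gene in TR rested mostly on control replicate 1. Phvul.001G173300 (chromosome 1, 43013676 to 43015747, plus strand) had 40.5, 26.1 and 43.0 CPM in Ispir and 6.82, 6.70 and 7.24 CPM in TR43477, a log2 fold change of 2.40 ± 0.21 (edgeR adjusted p = 0.00032). Both calls held without any of the 6 libraries in turn, but that of Phvul.011G092600 was lost when all 24 libraries shared a fit (edgeR adjusted p = 0.057). Phvul.006G075800 was the only member called in both root comparisons, and under salt it had 14.0, 5.34 and 25.3 CPM in Ispir and at most 3 counts in each TR43477 library, at least 101-fold apart (edgeR adjusted p = 0.00091).

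**Figure D5:**
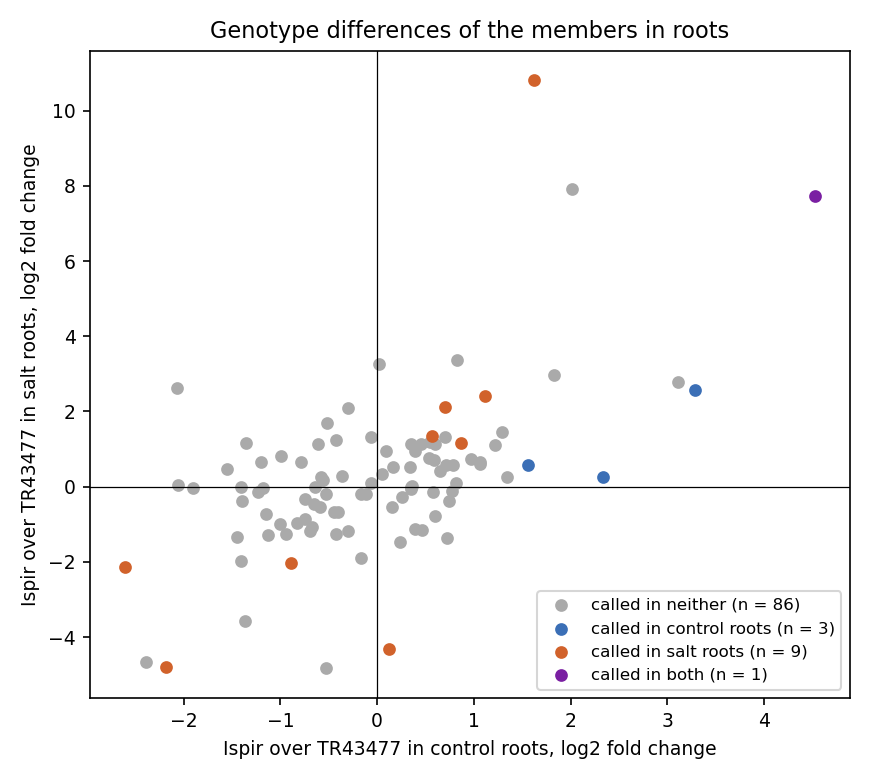
Each point is a member tested in both comparisons, placed by its edgeR log2 fold change of Ispir over TR43477 in control roots (x) and in salt roots (y), and coloured by the comparison in which it passed. Most points lie in neither class, and Phvul.006G075800 is the point called in both. Fold changes of genes with no count in a group are fitted values and no bound.

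How much further a member fell in either genotype follows from values the rule used and is described only. In the interaction of genotype and salt, edgeR called 0 of the 100 members and 0% of all genes, while 31 members and 2975 of 24210 genes had an unadjusted p under 0.05, and DESeq2 called 1 higher and 2 lower, against 0.777% and 0.268% of all genes. The fall was more than 1 larger on the log2(CPM + 1) scale in IR for 15 members and in TR for 13, against 5.82% of all genes more than 1 apart in either direction. The ends of this range were picked out after their values were seen. Phvul.009G120300 fell from 23.1, 22.5 and 46.8 CPM to 0.493, 0.140 and 0.222 CPM in IR, and from 27.4, 44.6 and 10.2 CPM to 5.07, 5.83 and 6.20 CPM in TR. Phvul.002G244900 went from 30.5, 30.6 and 30.8 CPM to 3.21, 7.94 and 21.1 CPM in IR, and from 132.9, 52.2 and 187.7 CPM to 0.845, 2.69 and 1.62 CPM in TR.

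Some members lay side by side on a chromosome. Of the 100, 9 were next to another member, in 5 neighbouring pairs, and Phvul.002G205100, Phvul.002G205200 and Phvul.002G205300 formed a run. Their differences were -1.66, -1.18 and -0.98 in IR and -2.63, -2.49 and -2.51 in TR. Whether these neighbours are alike in sequence was not examined. Neighbours of like sequence may share reads, and the rule for reads that map to several genes is not given in the sources used here. The separate values of such neighbours would then be uncertain. Of the 173 neighbours that were not members and had a root count, 9.25% were lower by over 0.5 in both roots, against 3.01% of all genes. The median neighbour stood at -0.11 in IR and -0.005 in TR. The last members inside the set were Phvul.003G057801 and Phvul.008G232600, both at -0.90, and the first outside were Phvul.007G191300 and Phvul.004G124300, both at -0.89.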

How the data were processed

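RNA of leaf and root was sequenced from stranded poly(A) libraries, and the authors used Trimmomatic for trimming, HISAT2 for alignment to Phaseolus vulgaris genome version 2.1 and SeqMonk for counting. The deposited counts per gene were used as whole numbers without normalization. How strand and multiply mapped reads were counted is not given in the sources used here. Deposited columns of log2 fold changes and p-values hold the authors' own comparisons and were not used.

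The 4 tables were joined by identifier, and every library was assigned to its group from the labels. Tests used edgeR 4.0.16 in R 4.3.3 (TMM, glmQLFit and glmQLFTest, two-sided) on genes with at least 1 count, with Benjamini-Hochberg adjustment over all genes of a fit. Genes were called at an adjusted p below 0.01 and a log2 fold change over 1 in either direction. Alternatives were DESeq2 1.42.0, other normalizations and filters, a block for replicate number and leaving out each library. Fits of the roots and of root against leaf were tried on simulated counts with known changes. In the root comparisons 89% to 96% of log2 changes of 2 were recovered, and 99% or 100% of changes of 4. For control root against control leaf, 65% and 96% were recovered in Ispir, but only 4% and 73% in TR43477. None of these shares describes the members, of which edgeR called 49 lower with salt in IR and 20 in TR. The median member kept 24.1% of its control level in IR and 22.8% in TR. How many real changes of a given size these fits miss was not tested. Genes named are the first 2 of each ranking (fall, control root level, leaf level, adjusted p of each comparison the rule did not use), the annotated member, those at the edge of the set, and others said to be picked after their values were seen. Members and lists were chosen with earlier results of these data known. No table paired the identifiers with names, so that planned functional lists, root markers, promoters and sequences were not used here.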

Additional observations from a re-analysis of the deposited data

How the results depend on the processing

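Of the 100 members, 57 stayed with a pseudocount of 0.1 CPM in place of 1 and 17 when a leaf mean of at least 1 CPM was required, which is the number of leaf-expressed members. With TMM library sizes, a pseudocount of 5, other leaf limits or the mean of both root differences, 67 to 89 stayed, and with any library left out 75 to 99. Exactly 50 stayed whichever library was left out. Requiring an adjusted p under 0.05 gave 78 members lower with salt in IR (3.04% of all genes), 52 in TR (1.00%), 8 higher and 3 lower in Ispir in control roots (2.72% and 3.11%), 14 higher and 14 lower in salt roots (5.94% and 4.73%), and 5 lower in root than leaf in either genotype. DESeq2 gave 81 lower in IR and 84 in TR, against 3.01% and 1.89% of all genes, where edgeR called 49 and 20, against 1.48% and 0.266%. It also gave 8 higher and 5 lower in control roots (2.96% and 3.61% of all genes), 14 and 14 in salt roots (5.68% and 4.13%), 5 lower in root than leaf in TR43477, and 1 and 2 in the interaction. All 24 libraries in a single fit gave 1 higher in control roots, 5 lower in root than leaf in TR43477 and 1 lower with salt in IL, where the main count was 0.

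Leaving out a library gave 8 to 46 members lower with salt in IR (8 without control replicate 1) and 1 to 45 in TR (1 without salt replicate 3, 45 without control replicate 3). It gave 0 to 4 higher and 0 to 1 lower in control roots, 3 to 10 higher and 2 to 6 lower in salt roots, 80 to 87 higher and 3 to 4 lower in root than leaf in Ispir, and 47 to 70 higher and 2 lower in TR43477. In leaves and in the interaction it gave 0.

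Deviations of same-numbered libraries from their group means correlated at -0.22 to 0.39, and in 0 of the comparisons did every pair exceed 0.1, so that the numbers were not taken to pair the samples. With a replicate block, 71 members were lower with salt in IR and 3 in TR, 7 were higher and 6 lower in Ispir in salt roots, 0 were higher in control roots and 46 were higher in root than leaf in TR43477. Settings were also tried on single genes in comparisons the rule did not use, including members not named above. Of these, 246 left the call as it was, 61 lost it, 5 gained it and none changed direction. The pooled numbers hide weaker calls in control roots. There Phvul.006G075800 kept its call in 8 settings and lost it in 4, and Phvul.002G123500 in 6 and 6. For Phvul.008G019600 the numbers were 5 and 7, and for Phvul.003G270800 they were 4 and 8.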
